A study of Mus musculus with 12 samples.

Results

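The MHC class II presentation genes followed here were H2-Aa, H2-Ab1, H2-Eb1 and H2-Eb2 (chains of class II molecules), Cd74 and Ctss (the invariant chain and a protease that cuts it), H2-DMa, H2-DMb1 and H2-Oa (peptide exchange and its control) and Ciita (the master regulator of the set). The 10 genes were taken by symbol from both deposited expression tables, which list 35856 genes between them. They were chosen because H2-Eb1 was among the largest rises in cumulus cells labelled knockout, so their difference between genotypes in cumulus cells is a description and was given no test. RNA was sequenced from mural granulosa cells (MGCs, which line the follicle wall) and from cumulus cells (which surround the oocyte) at 2 h post-hCG, with 3 libraries per genotype and cell type, 12 in all. Immature females were primed with eCG and then given hCG, which acts through the LH receptor. WT animals were purchased C57/BL6 mice. The Sphk1/2gc-/- animals were Sphk1-/-; Sphk2 fl/fl; Fshr-Cre mice, which lack sphingosine kinase 1 in every cell and delete sphingosine kinase 2 where the Fshr promoter drives Cre, that is in granulosa cells. These mice were bred from several lines and were not stated to be littermates of the WT mice, so that genotype and strain background cannot be told apart. Neither the labels nor the study's methods say whether the libraries of a group came from separate animals or whether MGCs and cumulus cells shared animals. The p-values below therefore measure only the spread between these libraries.

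MHC class II molecules are pairs of an alpha and a beta chain that show peptides from the endosome to CD4+ T cells. They assemble with the invariant chain CD74, which cathepsin S (Ctss) trims down to the fragment CLIP, and H2-DM then exchanges CLIP for peptide while H2-O holds H2-DM back. Professional antigen-presenting cells make these proteins all the time. Other cells make them mainly when interferon gamma, in part through IRF1, switches on Ciita, whose product works with the RFX, CREB and NFY proteins bound at X and Y boxes before the start of each gene.

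For 7 of the 10 genes RefSeq (GRCm38.p6) gave a window of 250 bases before to 50 bases after the start, and H2-Ab1, Cd74 and Ciita had none. The stretches below, from 150 to 31 bases before the start, show the boxes in the gene whose rise led to the choice (H2-Eb1), in an alpha chain gene that was high in the same libraries (H2-Aa) and in a neighbour that was close to 0 in every library (H2-Eb2). They lie at chr17:34305717-34305836 on the plus strand, at chr17:34287854-34287973 on the minus strand and at chr17:34325525-34325644 on the plus strand, in that order, and read 5′ to 3′ on the strand of the gene. Capitals mark the X box, searched as AG, any 2 bases, AC, any base and GATG, and the core of the Y box, searched as CCAAT, which reads ATTGG on the other strand.
H2-Eb1: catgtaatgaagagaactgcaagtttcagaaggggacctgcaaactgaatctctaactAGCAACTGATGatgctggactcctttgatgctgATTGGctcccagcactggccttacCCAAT
H2-Aa: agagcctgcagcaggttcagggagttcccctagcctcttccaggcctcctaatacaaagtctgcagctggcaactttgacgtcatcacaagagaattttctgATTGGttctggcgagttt
H2-Eb2: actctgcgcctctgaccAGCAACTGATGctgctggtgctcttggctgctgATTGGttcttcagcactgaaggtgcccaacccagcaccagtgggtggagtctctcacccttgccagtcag

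These X box letters stood in the windows of H2-Eb1 (first base 92 bases before the start), H2-DMb1 (95 bases), H2-Eb2 (133 bases) and H2-Oa (141 bases), each time with a CCAAT nearer to the start. Among 32851 windows of the same length, 0.968% held the X box letters, 37.4% held CCAAT and 0.387% held both, on either strand and without overlap in the windows of the class II genes. H2-Aa and 1 of the 2 windows of H2-DMa held CCAAT without these X box letters, and the Ctss window held neither. The letters of both boxes thus stood before H2-Eb1 and before H2-Eb2 and H2-Oa, whose transcripts were near 0. The CCAAT nearest to the X box letters began 59 bases before the start in H2-Eb1, 61 in H2-DMb1, 100 in H2-Eb2 and 43 in H2-Oa. It thus lay farther from the X box letters in H2-Oa, and whether it serves as a Y box there was not tested. A match of letters is a description and not a measure of binding. Only this X box pattern was searched, so a window without a match is not shown to lack an X box.

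Libraries held 16100365 to 19761604 reads as recovered from the steps of the FPKM values. Sphk1 stood at 1.68, 1.88 and 0.460 FPKM in the WT libraries 1 to 3 of MGCs, against 0.432, 0.557 and 0.104 FPKM in the Sphk1/2gc-/- libraries. In cumulus cells it went against the labels, with 0.0699 to 0.0954 FPKM in WT against 0.0778, 0.456 and 0.557 FPKM in libraries labelled Sphk1/2gc-/-. These 3 libraries are called knockout-labelled here, and directions in cumulus cells rest on the labels. Sphk2 did not check them, since a value for the whole gene also counts reads outside the deleted exons. Sphk1/2gc-/- MGC library 3 stood apart, its log2 values correlating at 0.912 to 0.939 with those of the other MGCs, which correlated at 0.960 to 0.986 among themselves, and results in MGCs are given with and without it. WT cumulus library 3 had 27541 genes above 0, against 18788 to 19289 in the other cumulus libraries. Granulosa cell markers were all above 0 in every library, and their summed level was 9183 to 15308 FPKM in MGCs and 2518 to 3977 FPKM in cumulus cells. The value used throughout is FPKM, that is fragments counted per length of exon and size of library, so that levels of different genes can be compared.

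**Figure D1:**
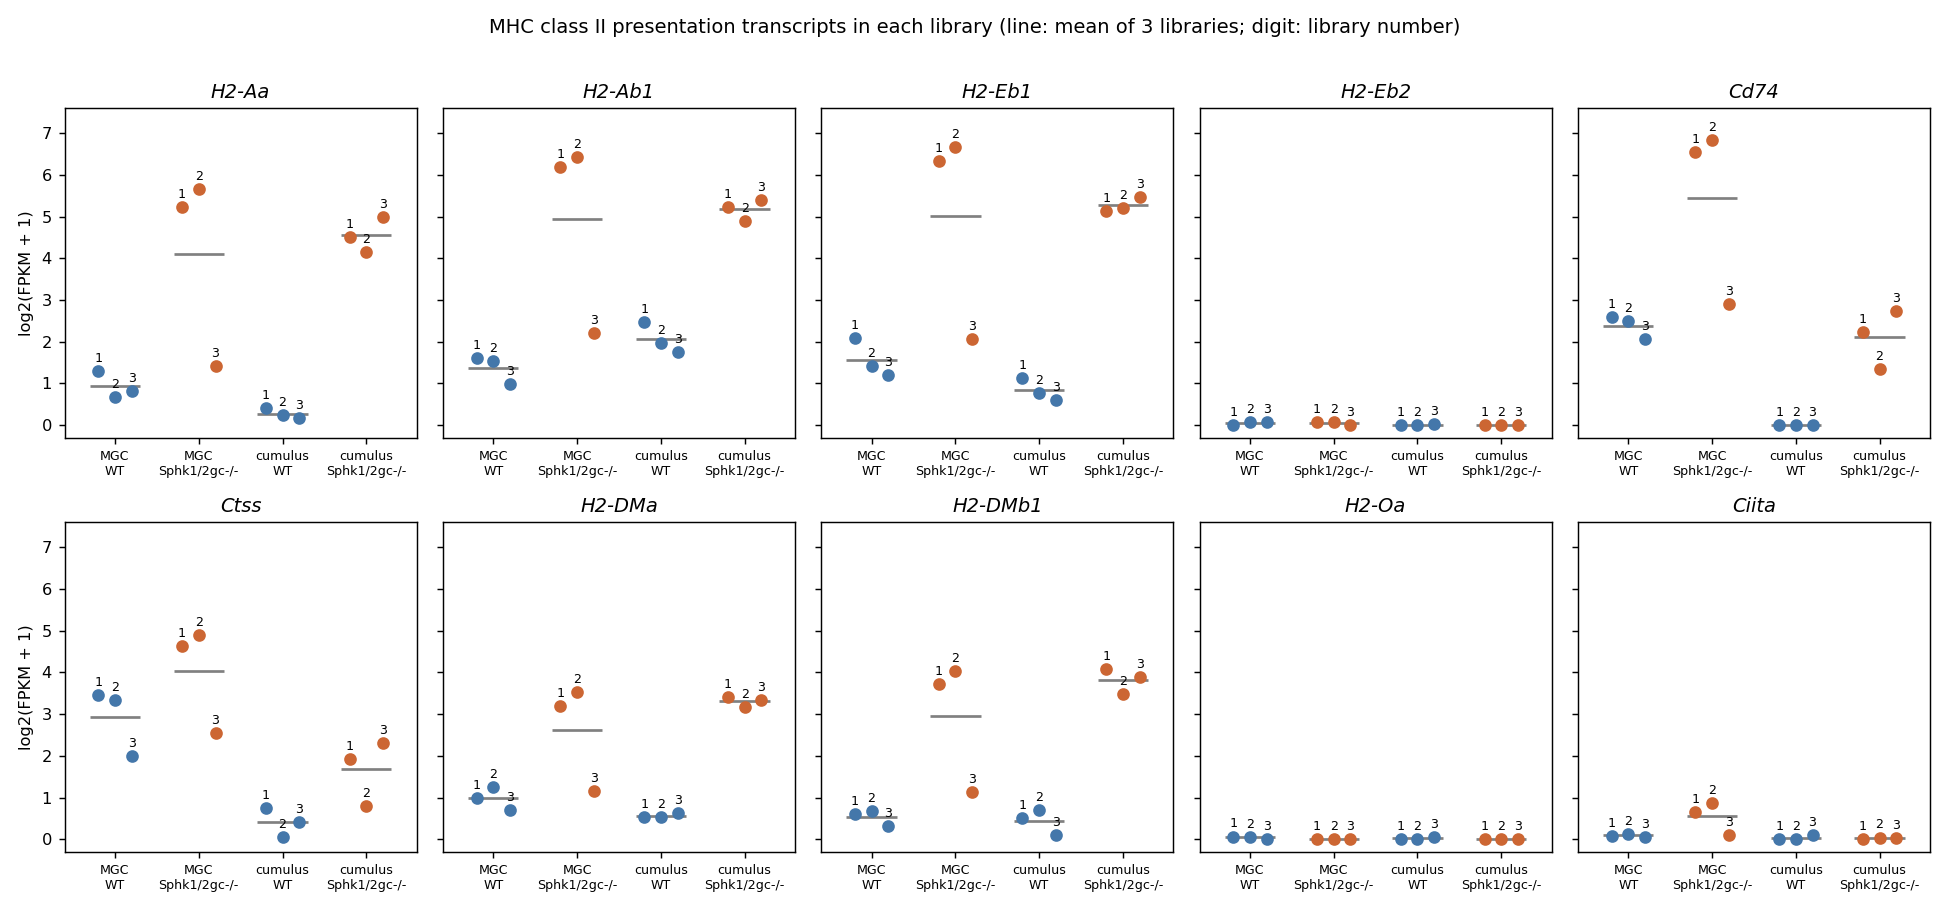
Level of each of the 10 transcripts as log2(FPKM + 1) in the 3 WT (blue) and 3 Sphk1/2gc-/- (orange) libraries of MGCs and cumulus cells, each digit giving the library number and each grey line the mean. All 3 cumulus libraries labelled Sphk1/2gc-/- are high for H2-Aa, H2-Ab1, H2-Eb1, H2-DMa and H2-DMb1, whereas in MGCs libraries 1 and 2 are high and library 3 lies near WT.

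In cumulus cells the class II chains stood at 0.122 to 4.55 FPKM in WT against 16.7 to 43.6 FPKM in knockout-labelled libraries, H2-Eb2 excepted, with no overlap, while Ciita stayed close to 0 in both. H2-Eb1 (ENSMUSG00000060586, chr17:34305867-34316674 in GRCm38, plus strand), the E beta chain, stood at 1.21, 0.705 and 0.529 FPKM in WT libraries 1 to 3 against 34.4, 35.9 and 43.6 FPKM in knockout-labelled libraries. Its means were 0.813 ± 0.352 and 38.0 ± 4.93 FPKM (SD, n = 3 each), a 46.7-fold difference, and the 3 high libraries lay within 1.27-fold of each other. H2-Aa (chr17:34282744-34287823, minus strand), the A alpha chain, stood at 0.331, 0.178 and 0.122 FPKM in WT against 21.8, 16.7 and 31.0 FPKM in knockout-labelled libraries. That is from 10, 6 and 4 reads to 771, 617 and 1115 reads, and the lowest of the high libraries was 50.3-fold above the highest WT library. H2-Ab1 (chr17:34257689-34269419), the A beta chain that pairs with H2-Aa, had the highest WT level of the chains in cumulus cells, with 4.55, 2.92 and 2.40 FPKM. It reached 36.6, 28.7 and 41.3 FPKM in the knockout-labelled libraries, a 10.8-fold difference of the means. The A alpha chain was thus far below its partner in WT, at 0.0506 to 0.0728 of the FPKM of H2-Ab1, and came to 0.580 to 0.750 of it in the knockout-labelled libraries. H2-Eb2 (chr17:34325665-34341412), a second beta chain gene 19.8 kb from the start of H2-Eb1, was at 0 in all 3 libraries labelled Sphk1/2gc-/- and at 0, 0 and 0.0258 FPKM in WT.

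The H2-DM genes, whose products exchange CLIP for peptide, were high in the same libraries as the chains. H2-DMa (chr17:34119541-34139101) stood at 0.454, 0.441 and 0.555 FPKM in WT cumulus cells against 9.67, 8.08 and 9.12 FPKM in knockout-labelled libraries, an 18.5-fold difference of the means. H2-DMb1 (chr17:34153072-34160230), its beta chain, stood at 0.418, 0.637 and 0.0767 FPKM in WT against 16.0, 10.2 and 13.9 FPKM in knockout-labelled libraries, a 35.5-fold difference. Neither gene overlapped between the genotypes, and with high reads the H2-DMa to H2-DMb1 ratio was steady at 0.604, 0.790 and 0.654. Part of the H2-DMa annotation, 360 exon bases, lies opposite to exons of Brd2, and the strand setting of the counting was not stated. H2-Oa (chr17:34092340-34095234), the alpha chain of the H2-DM inhibitor, was at 0 in the knockout-labelled libraries and at 0, 0 and 0.0433 FPKM in WT.

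The invariant chain and its protease were the least abundant of the genes that were high in the knockout-labelled cumulus libraries. Cd74 (chr18:60803848-60812652) was at 0 reads in all 3 WT cumulus libraries, where a count of 0 allows up to 3 reads or 0.118 to 0.132 FPKM. It stood at 3.69, 1.54 and 5.69 FPKM, or 98, 43 and 154 reads, in the knockout-labelled libraries. Set against the mean of the 3-read floors of the WT libraries, the mean of these was at least 29.4-fold higher, for counting error only. Library 2 was the lowest and lay 3.69-fold below library 3. Ctss (chr3:95526786-95556403) stood at 0.686, 0.0410 and 0.335 FPKM in WT against 2.81, 0.745 and 3.92 FPKM in knockout-labelled libraries. Library 2 was again the lowest, only 1.09-fold above the highest WT library. For the beta chain H2-Eb1, in contrast, library 2 lay between the other two.

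Ciita (chr16:10480059-10528418) did not follow its targets in cumulus cells. It had 0, 1 and 6 reads in WT and 0, 3 and 2 reads in the knockout-labelled libraries, or at most 0.0650 FPKM, and the 6 reads were in the WT library with the most genes above 0. Both groups were at or under the floor of 3 reads in 5 of 6 libraries, so no fold change was computed. Ciita shares 329 exon bases with Dexi on the opposite strand.

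Over all 10 genes, 7 had each library labelled Sphk1/2gc-/- above each WT library in cumulus cells (percent of all listed genes 8.32, of all tested genes 18.2). The members were chosen on this contrast, so the count is printed beside that background and nothing is read from it. Differences of the group means of log2(FPKM + 1) ranged from 4.44 for H2-Eb1 and 4.28 for H2-Aa through 3.39 for H2-DMb1, 3.11 for H2-Ab1 and 2.74 for H2-DMa to 2.11 for Cd74 and 1.27 for Ctss. H2-Eb2 and Ciita were at -0.01 and H2-Oa was at -0.02. The median over the 10 was 2.43, beside -0.06 over all genes tested. In bulk RNA a change in the number of cells of a type and a change in RNA per cell cannot be told apart.

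The rule that chose the genes used the cumulus contrast, and the same genes were tested in MGCs, although earlier results of these libraries were known when they were chosen and the cell types may share animals. The chains were again high in Sphk1/2gc-/- cells, but in 2 of 3 libraries. H2-Eb1 stood at 3.23, 1.66 and 1.30 FPKM in WT MGCs against 80.1, 102 and 3.18 FPKM in knockout libraries 1 to 3. Libraries 1 and 2 were thus above any cumulus library, library 3 lay just under WT library 1, and the means were 2.06 ± 1.02 and 61.7 ± 51.8 FPKM (SD, n = 3 each). H2-Ab1 stood at 2.04, 1.93 and 0.978 FPKM in WT against 72.1, 85.1 and 3.62 FPKM in knockout MGCs. H2-Aa stood at 1.46, 0.604 and 0.760 FPKM in WT against 36.3, 49.6 and 1.68 FPKM in knockout MGCs. For both A chains library 3 was above each WT library, by 1.78-fold for H2-Ab1 and 1.16-fold for H2-Aa over the highest of them. H2-Eb2 was at or under 0.0540 FPKM in all 6 MGC libraries.

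Cd74 and Ciita reached higher levels in MGCs than in cumulus cells, a difference that was not tested. Cd74 stood at 5.03, 4.61 and 3.20 FPKM in WT MGCs against 93.1, 114 and 6.55 FPKM in knockout MGCs, with means of 4.28 ± 0.960 and 71.3 ± 57.0 FPKM (SD, n = 3 each), and was the most abundant of the 10 transcripts in libraries 1 and 2. Ciita stood at 0.0577, 0.0907 and 0.0452 FPKM in WT against 0.584, 0.832 and 0.0737 FPKM in knockout MGCs. In reads that is 5, 8 and 4 against 52, 74 and 7, so that the regulator was high in the same libraries as its targets. Ctss was already at 10.0, 9.13 and 3.01 FPKM in WT and reached 23.98, 29.0 and 4.81 FPKM, with library 3 inside the WT range.

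The H2-DM genes showed the same split. H2-DMa stood at 0.998, 1.38 and 0.614 FPKM in WT MGCs against 8.16, 10.7 and 1.21 FPKM in knockout MGCs. H2-DMb1 stood at 0.531, 0.602 and 0.240 FPKM in WT against 12.3, 15.3 and 1.19 FPKM in knockout MGCs, with library 3 still 1.98-fold above the highest WT library. H2-Oa was at or under 0.0461 FPKM in WT and at 0 in all 3 Sphk1/2gc-/- libraries. For 8 of the 10 genes, all but H2-Eb2 and H2-Oa, Sphk1/2gc-/- libraries 1 and 2 were the highest of the 6 MGC libraries, an arrangement found in 7.34% of all genes tested.

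Of the 10 genes, 7 reached a mean of 0.5 FPKM in a genotype and were tested in MGCs, with Ciita just under that limit. H2-DMb1 reached it only in the knockout, its WT mean being 0.457 FPKM, and so had to differ to be tested. None was called over all 6 libraries by limma (adjusted p of 0.05 or less and log2 fold change of 1 or more in size), where 0.00654% of all genes tested were called higher and 0.0327% lower. At an unadjusted p under 0.05 in limma, 6 of the 7 were higher, beside 505 higher and 901 lower of all 15279 genes tested. The log2 fold change was 3.56 (SE 1.06, limma adjusted p = 0.376) for H2-Ab1, 3.46 (SE 1.16, adjusted p = 0.440) for H2-Eb1 and 3.17 (SE 1.04, adjusted p = 0.437) for H2-Aa. It was 3.06 for Cd74, 2.43 for H2-DMb1, 1.65 for H2-DMa and 1.09 for Ctss, with limma adjusted p of 0.418, 0.373, 0.484 and 0.684. The Sphk1/2gc-/- libraries spread over 32.0-fold for H2-Eb1 and 6.03-fold for Ctss, and no difference passed the test against that spread. Each Sphk1/2gc-/- library was above each WT library for 4 of the 10 genes, H2-Aa, H2-Ab1, H2-DMb1 and Cd74 (7.72% of all genes tested, 4.7% of all listed). The median difference over the 10 genes was 2.04, beside -0.00340 over all genes tested.

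Without Sphk1/2gc-/- library 3, 6 of the 8 genes that were then tested were called higher, where 0.762% of all genes tested were called higher and 0.355% lower. The log2 fold change was 4.95 (SE 0.278, limma adjusted p = 0.00346) for H2-Eb1, 4.93 (SE 0.214, adjusted p = 0.00156) for H2-Ab1 and 4.51 (SE 0.231, adjusted p = 0.00318) for H2-Aa. Cd74 followed with 4.32, H2-DMb1 with 3.34 and H2-DMa with 2.39, at limma adjusted p of 0.00156, 0.00318 and 0.0102. Ctss at 1.84 (limma adjusted p = 0.118) and Ciita at 0.68 (adjusted p = 0.0939) were not called, and Ciita, like H2-DMb1 among the 6, entered the test only through its knockout mean. Without library 3 of both genotypes, 7 of 8 were called higher, where 1.24% of all genes tested were called higher and 1.85% lower, and Ctss joined them at 1.37 (limma adjusted p = 0.00695). With the library number as a block none of the 7 was called over the 6 libraries, at limma adjusted p of 0.231 to 0.314, and 0.0131% of all genes were called higher. The result in MGCs thus turns on library 3, and the cause of its lower levels was not tested.

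**Figure D2:**
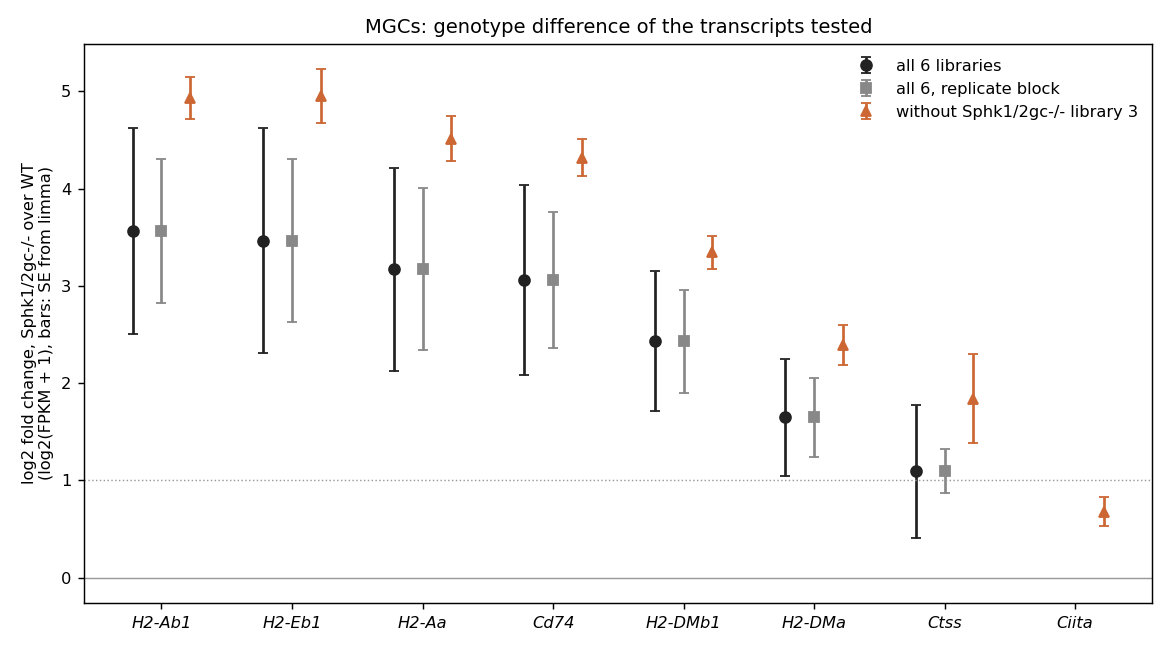
Log2 fold change between Sphk1/2gc-/- and WT MGCs with its SE from limma for the genes tested, over all 6 libraries (circles), with a replicate block (squares) and without Sphk1/2gc-/- library 3 (triangles), the dotted line marking a log2 fold change of 1. For H2-Eb1 the value goes from 3.46 (SE 1.16) to 4.95 (SE 0.278) when library 3 is left out, and Ciita is shown only where it was tested.

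The make-up of the set differed between the cell types, on FPKM tables that may have been scaled separately and that were compared here without a test. The share of all genes whose libraries do not overlap between the cell types was not computed, so overlap is given as a description only. In WT cells H2-Ab1 was the only one of the 10 genes with a higher mean in cumulus cells, at 3.29 ± 1.12 FPKM against 1.65 ± 0.583 FPKM in MGCs (SD, n = 3 each), and its libraries did not overlap. H2-Eb1, H2-Aa and H2-DMa were 2.54-fold, 4.47-fold and 2.06-fold higher in WT MGCs, without overlap of the libraries. In Sphk1/2gc-/- cells the means of the chains and of H2-DM in MGCs were 0.716-fold to 1.62-fold those in cumulus cells, and the libraries overlapped for every one of them. For the chains H2-Aa, H2-Ab1 and H2-Eb1 this overlap came from MGC library 3 alone, since libraries 1 and 2 were each above every cumulus library (for H2-Aa 36.3 and 49.6 FPKM, against at most 31.0 FPKM). Cd74, Ciita and Ctss did not overlap there and were 19.6-fold, 30.6-fold and 7.73-fold higher in MGCs.

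Cd74 measured against H2-Ab1 brings this out within each library. Its FPKM was 2.47, 2.39 and 3.27 times that of H2-Ab1 in WT MGCs and 1.29, 1.34 and 1.81 times in Sphk1/2gc-/- MGCs, library 3 included. In the cumulus libraries labelled Sphk1/2gc-/- it was 0.101, 0.0537 and 0.138 times that of H2-Ab1. Every MGC library thus held more Cd74 than H2-Ab1, and every cumulus library held less. C1qb, a complement gene of macrophages, stood at 8.30, 1.58 and 9.87 FPKM in the same 3 cumulus libraries and so was lowest in library 2, as were Cd74, Ctss, H2-Aa, H2-Ab1, H2-DMa and H2-DMb1. The summed macrophage markers were also lowest in library 2, at 55.4, 12.5 and 73.6 FPKM. The macrophage marker Cd14 went otherwise, at 2.20, 3.09 and 5.07 FPKM, and was lowest in library 1. The spread over these 3 libraries was 3.69-fold for Cd74 and 5.25-fold for Ctss, but 1.86-fold for H2-Aa, 1.57-fold for H2-DMb1, 1.44-fold for H2-Ab1 and 1.20-fold for H2-DMa. What C1qb contributes to these values was not tested.

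**Figure D3:**
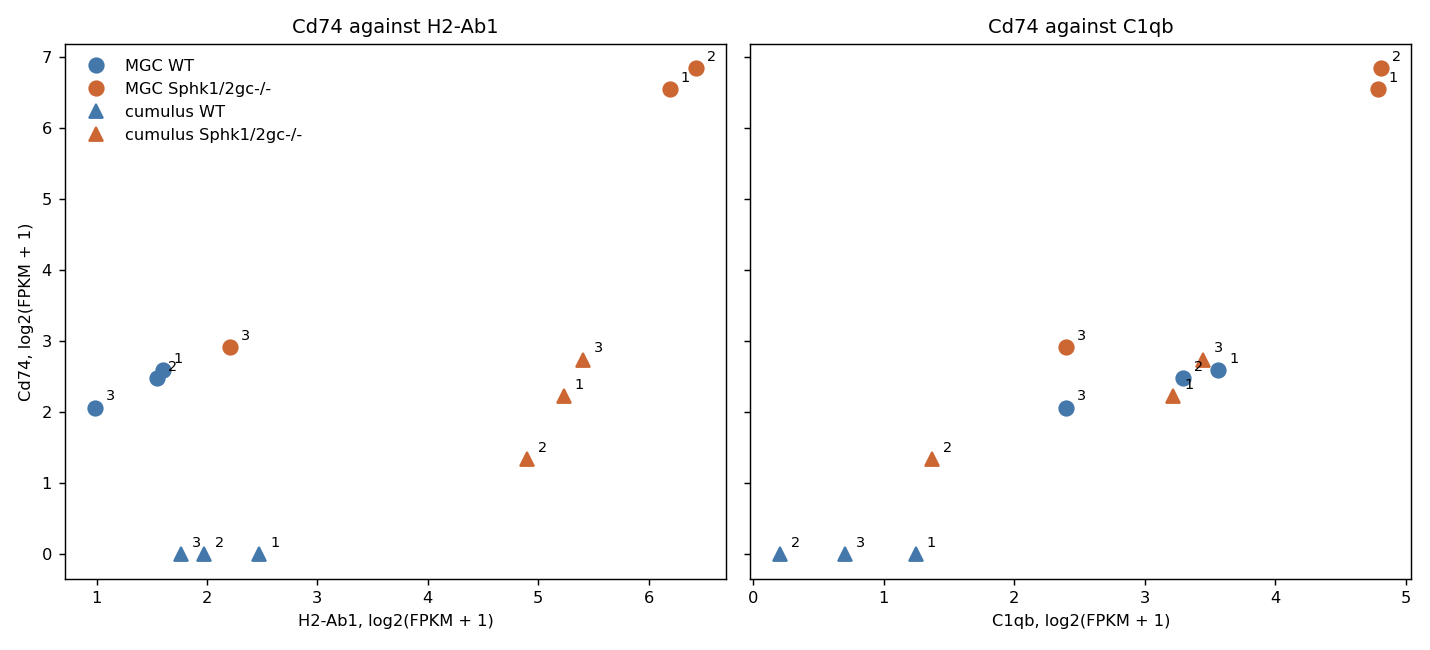
Cd74 against H2-Ab1 (left) and against the macrophage gene C1qb (right) as log2(FPKM + 1), with 1 point per library, circles for MGCs, triangles for cumulus cells, blue for WT and orange for Sphk1/2gc-/- labels. In Cd74 the cumulus libraries labelled Sphk1/2gc-/- lie at 1.54 to 5.69 FPKM, against 93.1 and 114 FPKM in Sphk1/2gc-/- MGC libraries 1 and 2. In H2-Ab1 they lie closer to these, at 28.7 to 41.3 FPKM against 72.1 and 85.1 FPKM. The 3 WT cumulus libraries lie at 0 in Cd74.

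Genes that act with the set were taken from lists written from general knowledge with earlier results known. Over all genes tested, 505 of 15279 were higher and 901 lower in MGCs at an unadjusted p of 0.05 or less in limma. In cumulus cells 1994 of 12205 were higher and 2670 lower. Without Sphk1/2gc-/- MGC library 3, 1028 of 15215 were higher and 2119 lower. The proteins that hold CIITA at the promoter (Rfx5, Rfxap, Rfxank, Nfya, Nfyb, Nfyc and Creb1) had no member called by limma, of 7 tested in MGCs (1 higher at an unadjusted p under 0.05) and 6 in cumulus cells (1 lower). Nfyc, the most abundant, stood at 11.8 to 13.6 FPKM in all 6 MGC libraries and at 5.78 to 10.6 FPKM in the cumulus libraries. None of the list was called in MGCs without library 3 either. Rfx5, which binds the X box, was at 2.16 to 3.34 FPKM in MGCs but only at 0.0904 to 0.267 FPKM in cumulus cells, WT and labelled Sphk1/2gc-/- alike.

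The route from interferon gamma to Ciita had 3 of 6 tested genes called higher and none lower in cumulus cells labelled Sphk1/2gc-/- (4.19% of all genes higher, 3.85% lower). At an unadjusted p under 0.05 in limma, 3 were higher and 2 lower. The kinase Jak1 fell from a mean of 88.9 to 56.4 FPKM (log2 fold change -0.65, limma adjusted p = 0.0238). The receptor gene Ifngr1 fell from 26.5 to 18.6 FPKM (-0.51, limma adjusted p = 0.0992). Irf1, a transcription factor at the Ciita promoter, stood at 2.39, 2.87 and 2.13 FPKM in WT against 16.6, 9.00 and 8.86 FPKM in knockout-labelled libraries (log2 fold change 1.80, SE 0.239, limma adjusted p = 0.00267). The feedback inhibitor Socs1 rose by 1.14 (limma adjusted p = 0.0422) and the kinase Jak2 by 1.02 (adjusted p = 0.00897). The count of called genes was 1 without knockout-labelled library 3, without WT library 2 or without library 3 of both genotypes. It was 2 without knockout-labelled library 2 or WT library 1 or 3. Ifng itself was at 0 in all 6 cumulus libraries. In MGCs 0 of 8 genes of the route were called over 6 libraries, and none had an unadjusted p under 0.05 in limma. Irf1 stood at 3.93, 4.45 and 9.19 FPKM in WT against 20.9, 26.3 and 4.70 FPKM in knockout MGCs. The order of the MGC libraries was therefore not that of the class II genes, since WT library 3, the lowest WT library for H2-Ab1, H2-Eb1, Cd74, Ctss, Ciita and both H2-DM genes, was the highest WT library for Irf1. Without Sphk1/2gc-/- library 3, 1 of 8 was called, Irf8 (log2 fold change 1.08, limma adjusted p = 0.0362), and without library 3 of both genotypes 2 of 8 were, Irf1 and Irf8. Ifng was at 0.0911 and 0.137 FPKM in Sphk1/2gc-/- MGC libraries 1 and 2 and at 0 in library 3, and at 0, 0.0460 and 0 FPKM in WT.

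Other genes of antigen handling were not called in either cell type over all 6 libraries. In cumulus cells some had a limma adjusted p under 0.05 but a log2 fold change under 1. These were Ctsb (0.85, adjusted p = 0.0347), Cd83 (0.72, adjusted p = 0.0277), Lgmn (0.63, adjusted p = 0.0304) and Ctsl (0.58, adjusted p = 0.0452). Of the endosomal proteases and their partners, 0 of 10 were called by limma in MGCs (1 higher and 3 lower at an unadjusted p under 0.05) and 0 of 9 in cumulus cells (4 higher), where Ctsl, the protease that cuts the invariant chain in cells with little cathepsin S, was the most abundant at 1599 to 3345 FPKM. Ctsl stood at 568 to 686 FPKM in WT MGCs against 974 to 1203 FPKM in knockout MGCs. Of the co-stimulation list (Cd80, Cd86, Cd40, Cd83, Icosl, Cd4 and Lag3), 0 of 4 in MGCs and 0 of 1 in cumulus cells were called (0 and 1 at an unadjusted p under 0.05), and Cd80, Cd86 and Cd40 were at or under 0.299 FPKM in every cumulus library. Among the other genes of the class II region, H2-DMb2, a second H2-DM beta gene, was at 0.448 and 0.622 FPKM in Sphk1/2gc-/- MGC libraries 1 and 2 and at 0 to 0.0349 FPKM in the other 4. It was at 0 in the cumulus libraries labelled Sphk1/2gc-/-, where H2-DMb1 was at 10.2 to 16.0 FPKM. H2-Ea-ps, the row of the gene for the E alpha chain, the partner of H2-Eb1 that C57BL/6 mice do not make into protein, was at 0 in 5 of 6 cumulus libraries and was not in the MGC table.

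MHC class I genes lie on both sides of the class II genes and were high in the same libraries. In cumulus cells 11 of 15 tested were called higher and 1, H2-Q10, lower, where 4.19% of all genes tested were called higher and 3.85% lower. H2-D1, a class I heavy chain, stood at 9.90, 6.97 and 15.9 FPKM in WT against 120, 129 and 155 FPKM in knockout-labelled libraries (log2 fold change 3.57, SE 0.266, limma adjusted p = 0.000350). H2-Q7 rose by 3.40, H2-Q6 by 3.09, H2-K1 by 2.92 and the light chain B2m by 2.36, all at a limma adjusted p of 0.00120 or less. H2-Q6, with a WT mean of 0.185 FPKM, entered the test only through its knockout-labelled mean. The count of higher genes was 11 or 12 with each library left out in turn, and the call of H2-Q10 was lost without knockout-labelled library 1, WT library 2 or library 3 of both genotypes. In MGCs 0 of 20 were called over all 6 libraries (0.00654% of all genes tested were called higher, 0.0327% lower). Of the 20, 13 were higher and 1 lower at an unadjusted p under 0.05 in limma. Without Sphk1/2gc-/- library 3, where 0.762% of all genes tested were called higher, 17 of 20 were. One of them, H2-T10, with a WT mean of 0.349 FPKM, entered that test only through its knockout mean. The H2-K1, H2-D1 and H2-Q genes are close copies whose reads can be shared, so that values of single genes among them are uncertain.

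**Figure D4:**
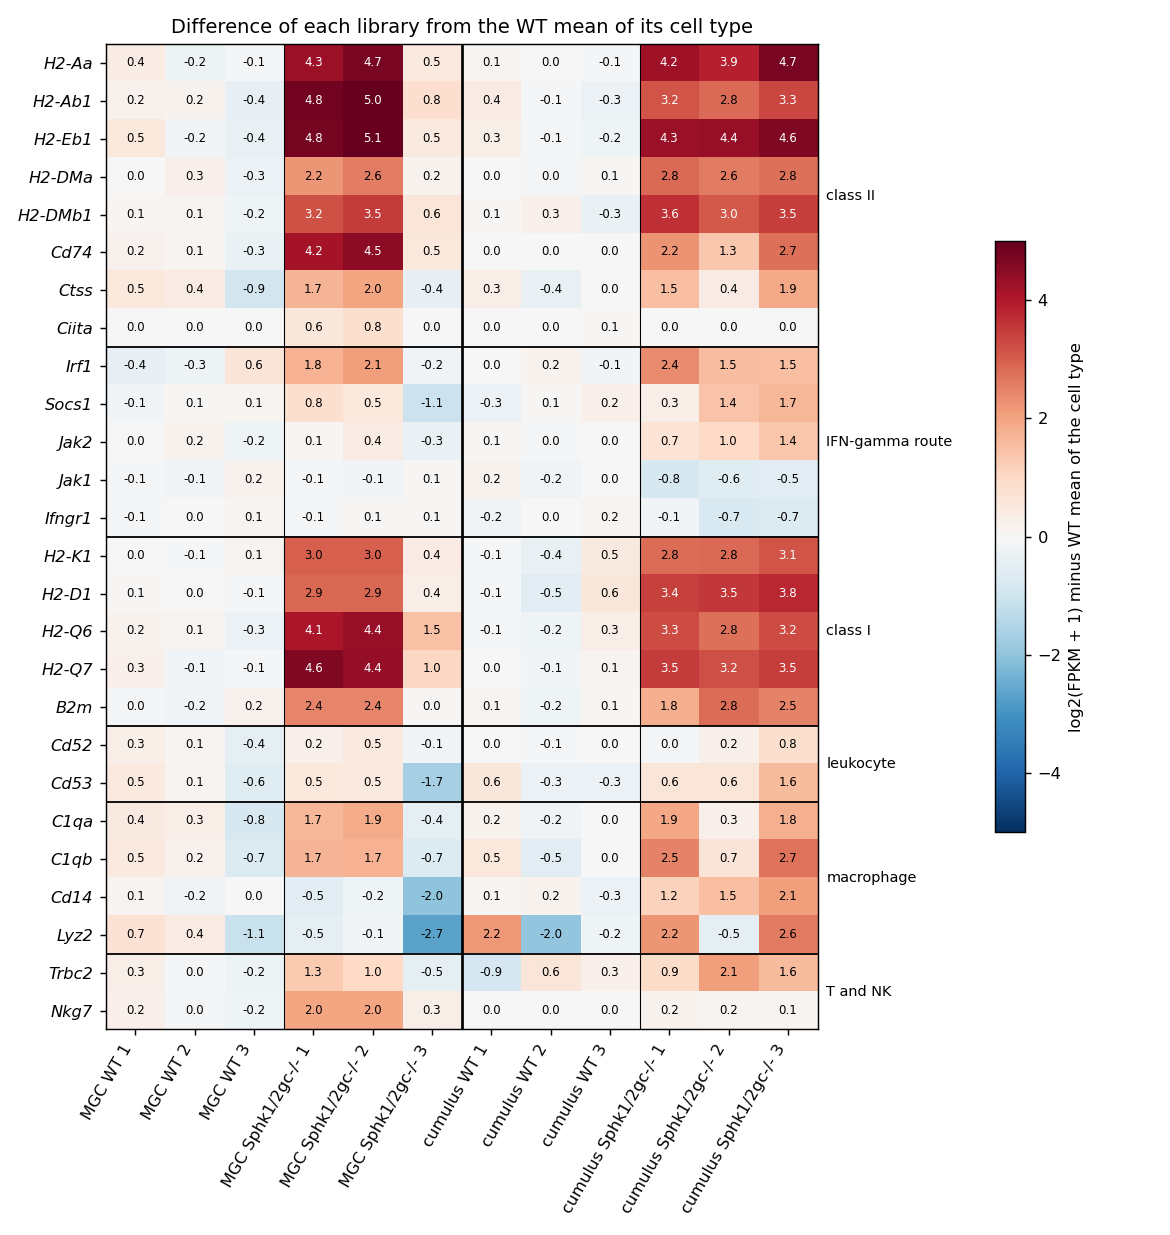
Difference of log2(FPKM + 1) from the mean of the 3 WT libraries of the same cell type, for class II genes, the interferon gamma route, class I genes and markers of leukocytes, macrophages and T and NK cells (rows) in the 12 libraries (columns), red for higher and blue for lower. Sphk1/2gc-/- MGC libraries 1 and 2 and the 3 cumulus libraries labelled Sphk1/2gc-/- are red for most class II and class I genes, Sphk1/2gc-/- MGC library 3 is much paler, and Ciita is raised in MGC libraries 1 and 2 alone.

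Markers of cells that carry class II molecules by nature are given beside these values, and their part in them was not tested. In cumulus cells the defining leukocyte gene Ptprc (CD45) was at or under 0.0377 FPKM in all 6 libraries. Cd53 stood at 0.784, 0 and 0 FPKM in WT against 0.823, 0.842 and 2.60 FPKM in knockout-labelled libraries (log2 fold change 0.92, limma adjusted p = 0.0734). Cd52 stood at 0.523, 0.422 and 0.528 FPKM against 0.447, 0.767 and 1.63 FPKM (0.34, limma adjusted p = 0.284). Mean log2 values were higher with the knockout label for 6 of the 8 leukocyte markers. The summed level of the 8 leukocyte markers was 0.690 to 1.56 FPKM in WT and 2.00 to 4.98 FPKM in the knockout-labelled libraries, and 0 of the 2 tested were called by limma (1 at an unadjusted p under 0.05). The 3 chains H2-Aa, H2-Ab1 and H2-Eb1 were at 16.7 to 43.6 FPKM in the knockout-labelled libraries, and what leukocytes contribute to these values was not tested. Macrophage markers summed to 39.4, 3.08 and 10.3 FPKM in WT libraries 1 to 3 against 55.4, 12.5 and 73.6 FPKM in knockout-labelled libraries. Of 6 tested, 3 were called higher, beside 4.19% of all genes tested. These were C1qb (log2 fold change 1.96, limma adjusted p = 0.0309), Cd14 (1.59, adjusted p = 0.00469) and C1qa (1.33, adjusted p = 0.0467). The count fell to 1 without knockout-labelled library 1 or 3, without WT libraries 1 or 2 or without library 3 of both genotypes, and to 2 without WT library 3. Cd14 and C1qa, with WT means of 0.444 and 0.248 FPKM, reached 0.5 FPKM only in the knockout-labelled group and so had to differ to be tested. Lyz2 stood at 34.7, 1.01 and 5.84 FPKM in WT against 35.6, 4.58 and 47.4 FPKM in knockout-labelled libraries. C1qb stood at 1.37, 0.153 and 0.628 FPKM in WT against 8.30, 1.58 and 9.87 FPKM. Dendritic cell markers summed to 0.630 to 1.53 FPKM in WT against 1.23 to 1.39 FPKM in knockout-labelled libraries, with 0 of 1 called (limma, also 0 at an unadjusted p under 0.05), and B cell markers to 0.310 FPKM or less, with none high enough to test. T and NK cell markers summed to 2.84, 8.89 and 7.13 FPKM in WT against 11.2, 26.5 and 18.7 FPKM in knockout-labelled libraries. Of these Cd3d was at 0 in all 6 cumulus libraries, whereas Trbc2, the only one tested, was called higher (1.53, limma adjusted p = 0.0321), a call lost without WT library 1 or 3, without knockout-labelled library 2 or 3 or without library 3 of both genotypes.

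In MGCs leukocyte markers were present in both genotypes. They summed to 29.7, 26.2 and 14.3 FPKM in WT against 31.1, 34.6 and 7.51 FPKM in knockout libraries 1 to 3, with 0 of 8 called by limma with or without library 3 (0 and 1 at an unadjusted p under 0.05). Ptprc stood at 1.22, 0.817 and 0.580 FPKM in WT against 1.37, 1.51 and 0.0544 FPKM in knockout MGCs, so that library 3 was lowest in it as well. Macrophage markers summed to 159, 131 and 55.6 FPKM in WT and to 139, 163 and 29.1 FPKM in knockout MGCs, with 0 of 13 called by limma (0 at an unadjusted p under 0.05), 1 of 14 without library 3 of the knockout (Fcgr1) and 4 of 14 without library 3 of both genotypes (Fcgr1, C1qa, C1qb and C1qc). Lyz2 made up the largest share of the macrophage sum, at 98.6, 80.1 and 27.3 FPKM in WT against 42.2, 55.1 and 8.49 FPKM in knockout MGCs. C1qa went the other way, at 10.5, 9.63 and 3.88 FPKM in WT against 25.6, 29.4 and 5.16 FPKM in knockout MGCs, and so was high in the 2 libraries in which Cd74 was high. T and NK cell markers differed between these libraries, with a sum of 2.00, 1.79 and 1.11 FPKM in WT against 11.5, 10.7 and 1.38 FPKM in knockout MGCs. Nkg7, of cytotoxic cells, stood at 0.531, 0.261 and 0.130 FPKM in WT against 4.07, 4.07 and 0.605 FPKM in knockout MGCs, and with Cd8a it was called without library 3 (2 of 6 tested), whereas 0 of 4 were called with it (2 at an unadjusted p under 0.05 in limma). Nkg7 was under 0.5 FPKM on average in WT and entered the test only through its knockout mean. Dendritic cell markers summed to 3.31 to 5.17 FPKM in WT and 4.25 to 5.52 FPKM in Sphk1/2gc-/- MGCs, and B cell markers to 0.859 FPKM or less in every MGC library, with none called by limma (0 of 4 dendritic cell markers at an unadjusted p under 0.05, and no B cell marker high enough to test).

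Of the 10 genes, 7 lie on chromosome 17 (GRCm38) within 250 kb of each other, in the order H2-Oa, H2-DMa, H2-DMb1, H2-Ab1, H2-Aa, H2-Eb1 and H2-Eb2, at -214, -186, -153, -48.2, -23.1, 0 and 19.8 kb from the lower end of H2-Eb1. H2-Oa and H2-Eb2, both near 0, are thus the outermost. Cd74, Ciita and Ctss lie on chromosomes 18, 16 and 3. Among other genes within 2 Mb of H2-Eb1, 10 of 96 tested were called higher and 3 lower in cumulus cells. Over all genes tested there, 4.19% were called higher and 3.85% lower. Outside the class I list the called genes of the window were 2 of 85 higher, 1110038B12Rik (log2 fold change 1.79) and Clic1 (1.40), and 2 lower, Nrm (-2.25) and Zfp955b (-1.12), the last named after its value was seen. In MGCs 0 of 136 were called by limma over all 6 libraries (16 higher and 8 lower at an unadjusted p under 0.05, beside 505 and 901 of all 15279). Without Sphk1/2gc-/- library 3, where 0.762% of all genes tested were called higher, 15 of 140 were. Outside the class I list the latter were 2 of 124, C4b (2.17) and Aif1 (1.27), also named after their values were seen. The median difference of the genes within 2 Mb other than the 10 was -0.06 in cumulus cells and 0.06 in MGCs, close to the -0.06 and -0.00340 over all genes tested.

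**Figure D5:**
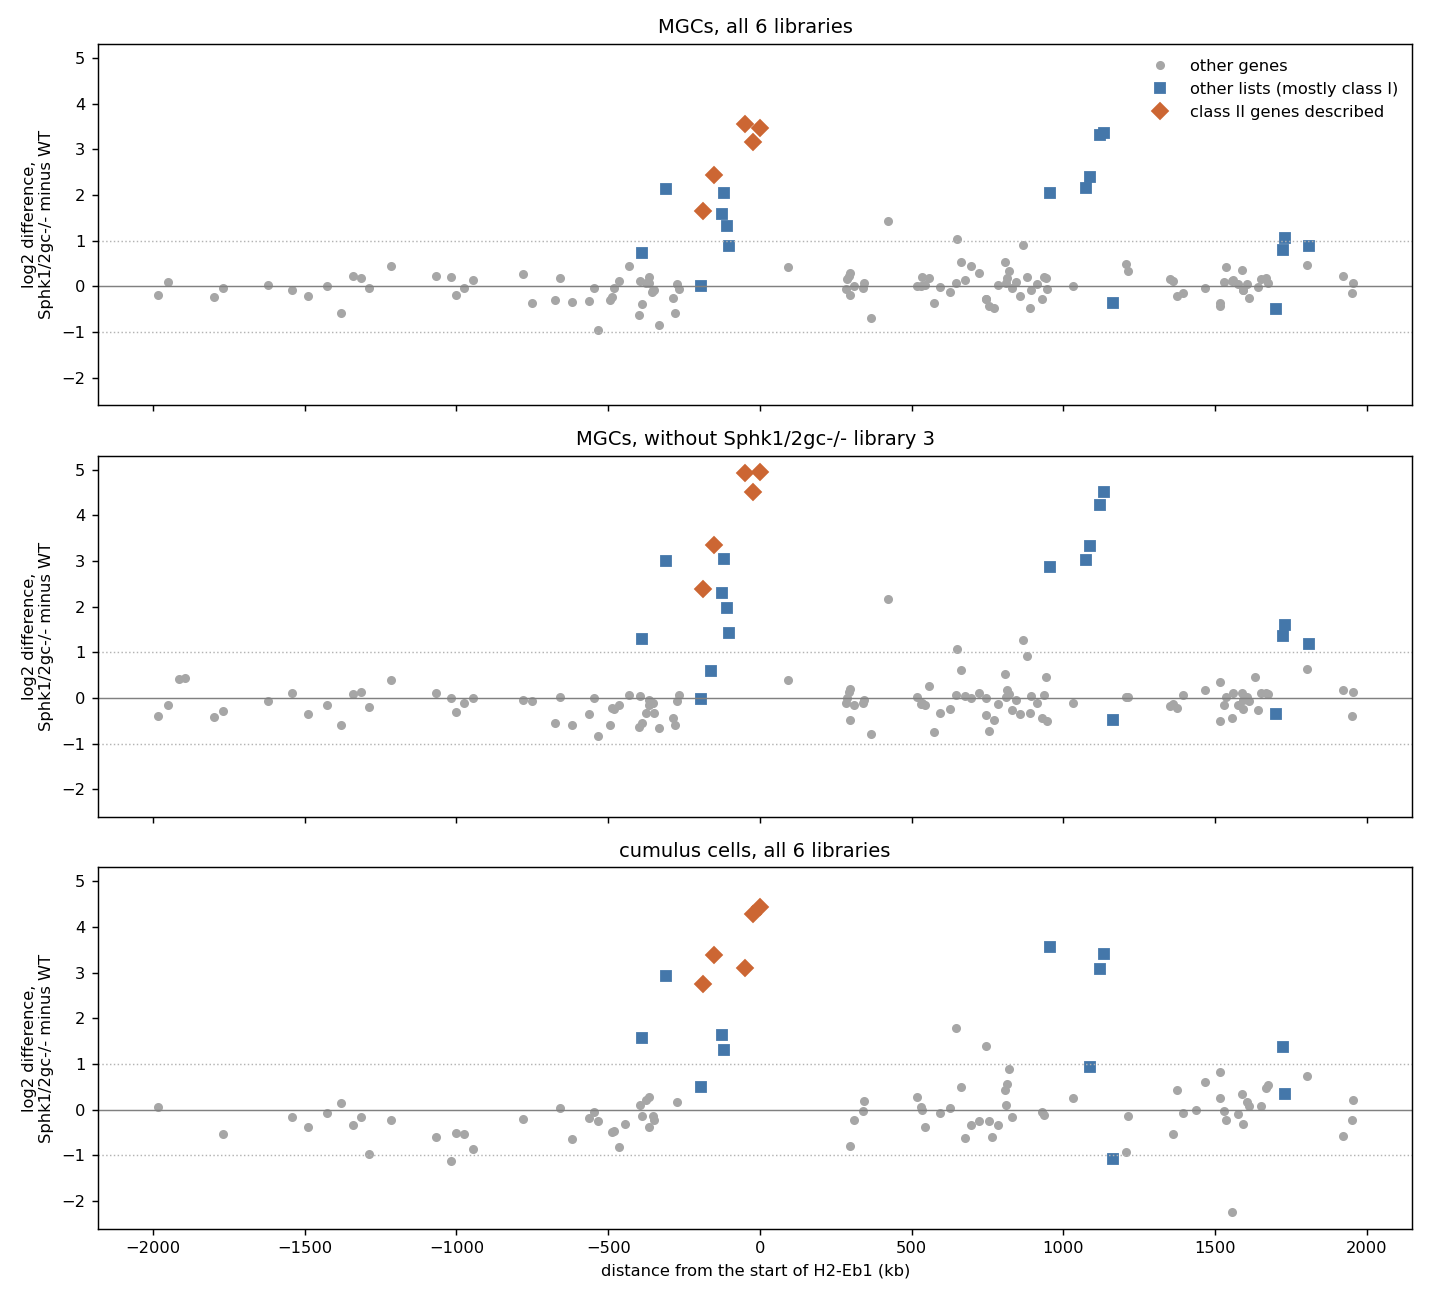
Log2 difference between Sphk1/2gc-/- and WT of the genes tested within 2 Mb of H2-Eb1 against distance from its start in kb, in MGCs with all 6 libraries, in MGCs without Sphk1/2gc-/- library 3 and in cumulus cells. Class II genes (diamonds) lie above 0 in all 3 panels, though none was called in MGCs over 6 libraries, and genes of other lists (squares), mostly class I, lie on both sides of 0, from H2-D1 at 3.57 to H2-Q10 at -1.09 in cumulus cells. Other genes are grey, and dotted lines mark a log2 difference of 1 in either direction.

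The profile of H2-Eb1 over the 12 libraries was compared with those of 11097 genes tested in both cell types, as the median absolute difference of log2(FPKM + 1) after centring. Among genes outside the set the smallest values were those of Smim14 (0.384), Lysmd2 (0.460), H2-Q7 (0.463), Gm2862 (0.525) and Mrfap1 (0.540), with a median of 2.22 over all. In the set they were 0.208 for H2-Aa, 0.451 for H2-Ab1, 0.493 for H2-DMb1, 0.814 for H2-DMa, 1.38 for Cd74 and 1.55 for Ctss. Because a median passes over the few libraries in which a gene differs most, Smim14 came first without the rise in MGCs, at 4.39, 4.80 and 7.10 FPKM in Sphk1/2gc-/- MGCs against 6.52, 6.72 and 4.15 FPKM in WT. With the root mean square difference, chosen after these values were seen, H2-Q7 (0.636), Tgtp2 (0.867), Igtp (0.934), Gbp7 (0.941) and H2-K1 (0.952) came first, beside 0.235 for H2-Aa and 0.613 for H2-Ab1. The points share libraries and cell types, so these values are a description.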

How the data were processed

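The authors deposited FPKM values in 1 table per cell type (29101 genes for MGCs, 33137 for cumulus cells). The submitters' processing notes name HISAT2 and GRCm38, and the counting tool and its strand setting are not given in the sources used here. Ensembl identifiers were matched to GENCODE M21 (GRCm38), which lacks 64 and 66 of them. After multiplication by exon length, 91.3% to 92.6% of each library's values other than 0 came to whole numbers of a step (tolerance 0.02 reads), which gave the reads per library. As annotated exon lengths did not give whole reads for most class II genes, the smallest length that did was used for their reads, a choice made after seeing the data, and none was found for H2-Eb2 and H2-Oa.

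Each cell type was fitted on its own by limma (version 3.58.1, R version 4.3.3) with the intensity trend, on log2(FPKM + 1), for genes whose mean reached 0.5 FPKM in either genotype. Fold changes on this scale understate changes of low genes. A call required p, adjusted by Benjamini-Hochberg, to be 0.05 or less together with a change of 1 or more on the log2 scale. The code was tested on simulated data. The members and all lists were chosen with earlier results of these data known. The rule for naming was all members, from each other list those called (up to 4 by size) and the 2 most abundant, up to 3 called genes in no list within 2 Mb of H2-Eb1, and the 5 genes most like H2-Eb1. Cst3, Zbtb46, Clec9a, Cd79a and Cd79b fell under this rule but enter the text only through the counts or sums of their lists. Further names were added after their values were seen. A gene of one list is not reported here and was left out of that list's counts.

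Deviations from the genotype means correlated at 0.220, 0.158 and 0.224 between same-numbered libraries in MGCs and at -0.148, -0.0511 and 0.115 in cumulus cells. The main fits did not use the library number as a pairing, and a block on it was run as an alternative in both cell types. Alternatives were a pseudocount of 0.1, quantile normalization, no filter, a replicate block, other window sizes and leaving out libraries.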

Additional observations from a re-analysis of the deposited data

How the results depend on the processing

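The count of class II genes called in MGCs was 0 under a pseudocount of 0.1, quantile normalization, no filter and the replicate block, and ranged from 0 to 7 when libraries were left out, with 6 without Sphk1/2gc-/- library 3 and 7 without library 3 of both genotypes. Depth does not limit the result for the chains, which rest on 617 or more reads where they are high, but it does for Ciita in cumulus cells and for H2-Eb2 and H2-Oa. In cumulus cells 504 genes outside the set were called higher and 470 lower, which became 818 and 849 with a pseudocount of 0.1, 499 and 456 with the replicate block, and 366 to 645 and 290 to 654 when libraries were left out, the lowest values without library 3 of both genotypes. The block changed no call of a class II gene or of a listed gene in MGCs. The median cumulus difference of the 10 genes was 3.69 with a pseudocount of 0.1 against 2.43, and 2.26 to 2.65 when libraries were left out. In MGCs the genes called higher within 2 Mb of H2-Eb1 went from 0 to 15 or 16 when library 3 was left out in 1 or both genotypes, and in cumulus cells there were 7 within 1 Mb and 11 within 5 Mb against 10. The causes were not tested. With no filter the macrophage marker count in cumulus cells was 1 of 14 and Trbc2 was not called, and with a pseudocount of 0.1 the co-stimulation count there was 1 of 1. Quantile normalization moved no count of all genes called in cumulus cells by over 1.5 times.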

Other observations

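Markers of further cell types of the ovary were measured in the same libraries. Theca and stroma markers summed to 5.75 to 12.0 FPKM in the knockout-labelled cumulus libraries and to 37.9 and 23.5 FPKM in WT libraries 1 and 3, with WT library 2 inside the former range, and Cyp17a1, a steroid enzyme of theca cells, was called lower (log2 fold change -1.24, limma adjusted p = 0.0372), a call that was lost with the replicate block, without any filter and without any single library but WT library 2. Oocyte markers summed to 1.26 to 1.61 FPKM in the knockout-labelled cumulus libraries and to 1.87 to 5.18 FPKM in WT, with 0 of 3 called by limma (2 lower at an unadjusted p under 0.05) and 1 of 4 lower without WT library 2. Among granulosa cell markers 3 of 9 were called lower in cumulus cells, Cyp19a1 (-2.38), Inhba (-1.35) and Nr5a2 (25.0 to 32.3 FPKM in WT against 7.22 to 10.6 FPKM), and 0 of 9 in MGCs over all 6 libraries (0 at an unadjusted p under 0.05). Endothelial and surface epithelium markers were too low to test in cumulus cells, and none was called by limma in MGCs (2 of 5 and 1 of 4 lower at an unadjusted p under 0.05). Sphk1/2gc-/- MGC library 3, low in class II transcripts, was also the lowest of the 6 MGC libraries in the summed leukocyte and macrophage markers and the highest in the summed oocyte markers (110 FPKM, against 27.8 to 94.4 FPKM in the other 5).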
